A study of Mus musculus with 9 samples.

Results

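TRAV17, TRAV19 and TRAV21 are V genes of the mouse T-cell receptor alpha (TRA) locus that lie near the J end of the V cluster and have 1 copy each. Their chains were the productive TRA contigs whose first V call was 1 of these genes, counted once per library for each combination of V gene, J gene and junction nucleotides. They made up 681 of 22252 distinct TRA chains in 8 libraries (3.06%), of which 122 used TRAV17, 177 TRAV19 and 382 TRAV21. In the 6 libraries that carry the comparisons below, they made up 363 of 12990 chains.

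Female mice of 10 to 11 months, wild type (WT) or 5xFAD, gave lymph node cells for single-cell sequencing of T-cell receptors from the 5' end. 5xFAD is a transgenic line that carries familial Alzheimer's disease mutations. The nodes were inguinal (iLN), superficial cervical (sCLN) and deep cervical (dCLN), and each kind gave 1 WT and 1 5xFAD library. A dCLN library with CD4 in its title (labelled WT) and a library that mixed nodes and genotypes were used as further values. Another CD4-titled library, labelled 5xFAD, shared 6829 cell barcodes with the first and was not used, and no genotype is drawn from either. Cells were tagged with hashtag antibodies and pooled, the strain background and the number of animals behind a library are not given in the labels, and p-values below measure the spread between libraries. The 8 tables used held 3458 to 13049 contigs, with 1495 to 6049 productive TRA contigs each, and no other library pair shared more than 47 barcodes.

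A TRA chain is made in developing thymocytes by joining 1 V gene to 1 of many J genes, with the DNA between them cut out. A thymocyte can join again on the same chromosome, using a V gene farther upstream and a J gene farther downstream, and each such step deletes the earlier join. The first joins are known to use V genes at the J end of the V cluster and J genes at the V end of the J cluster, and later joins move outward on both sides. TRAJ genes are numbered downwards along the chromosome, so high TRAJ numbers lie nearest the V genes. The comparison of TRAJ numbers asks how far along the J cluster these 3 V genes had joined, beside all other TRAV genes of the same library.

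In the GENCODE annotation of GRCm38 all 3 genes lie on the plus strand of chromosome 14, each as 1 of 128 TRAV records. Trav17 spans chr14:53806639-53807115 and ends 347.9 kb before the nearest TRAJ record. Trav19 spans chr14:53845234-53845827, at 309.2 kb. Trav21-dv12, whose name records that it can also join the delta locus, spans chr14:53875984-53876752, at 278.3 kb. The 60 TRAJ records cover 63.8 kb, from 54155005 to 54218842. These are not the last V records: Trav18 lies between Trav17 and Trav19, Trav20 and Trav22 are annotated as pseudogenes, and Trav23, annotated as a V gene, lies nearest to the J genes at 177.3 kb. No chain of TRAV20, TRAV22 or TRAV23 was listed, and TRAV18 was found in 2 chains, joined to TRAJ48 and TRAJ56.

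Each of the 3 genes occurred in 2 sequence forms, shown here because their shares differ between libraries. The reference form is identical to the GRCm38 transcript over the whole V region up to the base before the junction. The second form differs from it at 3, 3 and 2 bases in TRAV17, TRAV19 and TRAV21. Sequences run 5' to 3' as read from the contigs, and capitals mark the bases that differ.
TRAV17 reference form: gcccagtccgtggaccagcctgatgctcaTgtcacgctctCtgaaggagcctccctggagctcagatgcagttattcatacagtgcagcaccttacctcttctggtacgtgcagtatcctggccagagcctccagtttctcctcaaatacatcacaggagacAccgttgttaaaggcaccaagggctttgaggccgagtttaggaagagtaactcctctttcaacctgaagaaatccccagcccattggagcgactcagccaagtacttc
TRAV17 second form: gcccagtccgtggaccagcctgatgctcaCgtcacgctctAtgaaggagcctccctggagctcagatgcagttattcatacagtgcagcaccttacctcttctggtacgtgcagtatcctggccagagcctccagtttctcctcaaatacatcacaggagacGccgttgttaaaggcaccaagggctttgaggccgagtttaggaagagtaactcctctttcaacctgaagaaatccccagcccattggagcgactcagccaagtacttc
TRAV19 reference form: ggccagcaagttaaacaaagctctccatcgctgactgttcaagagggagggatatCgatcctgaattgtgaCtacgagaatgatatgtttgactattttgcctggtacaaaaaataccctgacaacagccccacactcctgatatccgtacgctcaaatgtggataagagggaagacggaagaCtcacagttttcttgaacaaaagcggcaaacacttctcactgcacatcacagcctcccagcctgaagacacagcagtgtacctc
TRAV19 second form: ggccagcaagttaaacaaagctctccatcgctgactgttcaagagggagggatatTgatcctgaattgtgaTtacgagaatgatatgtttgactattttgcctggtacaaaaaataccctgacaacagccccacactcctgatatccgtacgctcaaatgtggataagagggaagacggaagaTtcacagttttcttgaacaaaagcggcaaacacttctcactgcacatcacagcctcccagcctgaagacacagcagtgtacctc
TRAV21 reference form: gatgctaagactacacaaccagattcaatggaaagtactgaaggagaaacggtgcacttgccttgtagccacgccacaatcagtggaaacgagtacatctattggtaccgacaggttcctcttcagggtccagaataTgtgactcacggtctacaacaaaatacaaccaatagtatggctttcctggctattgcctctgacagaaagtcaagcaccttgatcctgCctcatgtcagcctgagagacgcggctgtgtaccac
TRAV21 second form: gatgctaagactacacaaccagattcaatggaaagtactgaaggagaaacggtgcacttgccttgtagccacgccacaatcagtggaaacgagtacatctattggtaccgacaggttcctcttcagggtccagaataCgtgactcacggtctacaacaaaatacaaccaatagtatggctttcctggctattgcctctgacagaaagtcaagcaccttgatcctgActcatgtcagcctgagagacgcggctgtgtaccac
With positions counted from 1 at the start of the V region with the alignment gaps of the deposited tables, and the reference base first, TRAV17 had T33C and C44A in framework 1 and A190G in CDR2, a loop of the V region. TRAV19 had C59T and C75T in framework 1 and C229T in framework 3. TRAV21 had T159C in framework 2 and C280A in framework 3. Regions are those of the deposited tables. Every 1 of the 706 contigs carried all bases of 1 form or of the other, and 703 matched it at every base.

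The 3 genes together were used at a similar low level in each library. In WT they made up 2.79% of distinct TRA chains in dCLN, 2.59% in sCLN and 2.90% in iLN. In 5xFAD they made up 2.80%, 2.63% and 3.13% of the same nodes. The 6 values lie within each other's counting error, with exact Clopper-Pearson 95% intervals that run from 1.83 to 3.55 in sCLN WT and from 2.32 to 4.13 in iLN 5xFAD. Such intervals cover counting error only. TRAV21 was the most used, at 1.37% to 2.48%, followed by TRAV19 at 0.457% to 1.01% and TRAV17 at 0.0700% to 0.410%. TRAV17 was higher in the other libraries, at 1.06% in the CD4-titled library (interval 0.812 to 1.36) and 0.826% in the mixed library (0.554 to 1.18). Those values lie above every one of the 6 main libraries. The median UMI count per contig of the 3 genes together was 3 to 4 in those libraries and 5 to 7 in the main ones. V calls of other TRAV contigs named more than 1 gene in 18.3% in the CD4-titled and 50.1% in the mixed library. In the main libraries this was 5.62% to 22.9%. The part of either in the difference was not tested.

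Chains of these 3 genes had joined far higher TRAJ numbers than other TRAV chains in each of the 8 libraries. In WT their mean TRAJ number was 50.6 in dCLN, 48.3 in sCLN and 49.5 in iLN, where all other TRAV chains had means of 30.8, 29.7 and 30.01. In 5xFAD it was 46.2, 47.7 and 48.8 in these nodes, where other TRAV chains had 31.2, 31.9 and 31.2. The groups do not overlap, since the lowest mean of the 3 genes, 46.2, lies above the highest of the others, 31.9. The difference was 17.7 ± 1.99 TRAJ numbers (SD, n = 6 libraries) and was positive in 6 of 6. An exact two-sided sign-flip permutation test over libraries gave p = 0.03125, the smallest that 6 libraries allow, and 0.0556 after Benjamini-Hochberg adjustment over 16 tests, which misses 0.05. The CD4-titled library had 48.0 against 30.2 and the mixed library 49.6 against 29.2, and with these 2 added the adjusted p was 0.0139. The smallest exact p is 0.0078 with 8 libraries. The labels do not say whether libraries share animals, so they may not be independent.

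**Figure D1:**
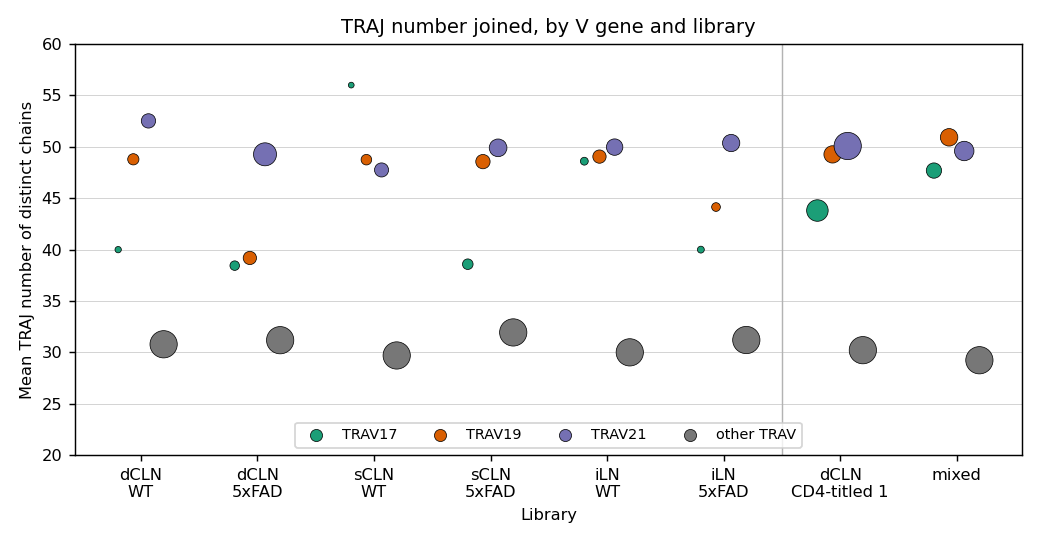
Mean TRAJ number (vertical axis) of distinct chains of TRAV17, TRAV19, TRAV21 and all other TRAV in each of 8 libraries (horizontal axis), with the area of a point growing with the number of chains up to 100. Other TRAV lie between 29.2 and 31.9, and every point of the 3 genes lies above them, with TRAV17 resting on 1 to 12 chains in the 6 libraries left of the line.

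The share of chains at the V-proximal end of the J cluster, taken as TRAJ 40 or above, showed the same. It was 82.3% ± 4.35 for the 3 genes and 31.9% ± 2.67 for other TRAV (SD, n = 6 libraries). The difference of 50.4 percentage points was positive in 6 of 6 libraries (exact p = 0.03125, adjusted 0.0556). Over all 8 libraries, 374 of 681 chains (54.9%) lay at TRAJ 50 or above, against 11.2% of 21571 other chains. At the far end, TRAJ 20 or below, were 13 of 681 chains (1.91%), against 26.9% of the others. None of these 13 was in a main WT library: 5 were in dCLN 5xFAD, 2 in sCLN 5xFAD, 1 in iLN 5xFAD, 3 in the CD4-titled and 2 in the mixed library. No genotype is drawn from the CD4-titled library and the mixed one is labelled as both, so the genotype of their chains is not known. The main WT libraries held 41, 37 and 60 chains of the 3 genes.

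Over the 6 main libraries, TRAV21 had the highest mean of the 3 and the least spread, though over the WT libraries alone TRAV19 varied less (SD 0.16 against 2.39). TRAV21, nearest to the J genes, had means of 52.5, 47.8 and 49.97 in dCLN, sCLN and iLN of WT, and of 49.3, 49.9 and 50.4 in those of 5xFAD. TRAV19 had 48.8, 48.8 and 49.05 in WT and 39.2, 48.6 and 44.1 in 5xFAD. Its values in dCLN 5xFAD (21 chains) and iLN 5xFAD (7 chains) lie below the other 4. TRAV17, the farthest of the 3, had 40, 56.0 and 48.6 in WT, on 2, 1 and 5 chains, and 38.4, 38.6 and 40 in 5xFAD, on 9, 12 and 3 chains. In the CD4-titled and mixed libraries, where it had 61 and 29 chains, TRAV17 had means of 43.8 and 47.7. There TRAV19 had 49.3 and 50.9, and TRAV21 had 50.1 and 49.6. Each gene lay above other TRAV in 6 of 6 libraries, by 19.2 ± 1.49 for TRAV21, 15.6 ± 4.37 for TRAV19 and 12.8 ± 7.92 for TRAV17 (SD, n = 6; exact p = 0.03125 and adjusted 0.0556 for each). The share at TRAJ 40 or above exceeded that of other TRAV by 55.8, 43.5 and 29.6 percentage points for TRAV21, TRAV19 and TRAV17. For TRAV17 this held in 5 of 6 libraries (exact p = 0.0625).

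Over the 6 main libraries the order of the means was thus TRAV21 (49.96 ± 1.55), TRAV19 (46.4 ± 4.00) and TRAV17 (43.6 ± 7.16), their order along the chromosome. Neighbours in this order could not be told apart, and in the mixed library TRAV19 lay above TRAV21. TRAV21 exceeded TRAV19 by 3.55 in 5 of 6 libraries (exact p = 0.09375), and TRAV19 exceeded TRAV17 by 2.81 in 5 of 6 (exact p = 0.28125). The next subgroups were TRAV13, at 34.1 ± 1.504, and TRAV16, at 33.9 ± 1.52. TRAV16 is the subgroup numbered just below TRAV17, and its copies lie 411.3, 803.4 and 1107.2 kb from the J genes. V genes of other subgroups lie between its nearest copy and Trav17, at 377.4 to 397.1 kb. The copies of a subgroup were not compared on their own. TRAV17 lay above TRAV16 by 9.69, TRAV19 by 12.5 and TRAV21 by 16.1, each in 6 of 6 libraries (exact p = 0.03125, adjusted 0.0536 over 24 tests). These tests between single subgroups were added after the means were seen. The 13 other subgroups with at least 100 chains had means from 25.9 to 34.1, with TRAV1, the first gene of the cluster and the farthest from the J genes, lowest at 25.9 ± 2.92. TRAV2, next to it, had 27.1 ± 5.51 over 5 libraries on 21 chains. TRAV11, in the middle of the number order, had 24.5 ± 4.38 over 6 libraries on 31 chains, below TRAV1. Of the 13 subgroups, TRAV3 varied most over the 6 libraries, from 25.7 to 41.2 (32.9 ± 7.15). Its highest value lies above the TRAV17 means of 38.4 to 40 in the 5xFAD libraries and of 40 in dCLN WT. It also lies above the TRAV19 mean of 39.2 in dCLN 5xFAD. The gap between means thus does not hold for every library value. Of 246 TRAV1 chains, 12 (4.88%) had TRAJ 40 or above, against 334 of 382 TRAV21 chains (87.4%).

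**Figure D2:**
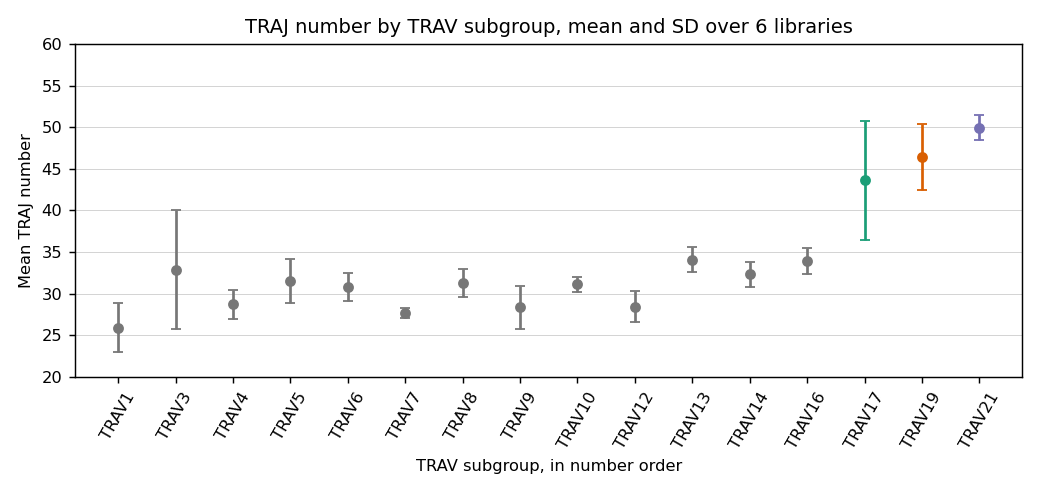
Mean TRAJ number (vertical axis) for each TRAV subgroup with at least 100 distinct chains, in number order (horizontal axis). Points are means and bars SD over 6 libraries. The means of the 13 other subgroups lie between 25.9 and 34.1, and those of TRAV17, TRAV19 and TRAV21 at 43.6, 46.4 and 49.96. TRAV3 varied most of the 13 (SD 7.15).

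Gene by gene along the J cluster, 26 of 42 TRAJ genes tested differed between the 3 V genes and other TRAV (61.9%), 7 higher (16.7%) and 19 lower (45.2%), by edgeR's quasi-likelihood test with Benjamini-Hochberg adjustment at 0.05 over 42 genes. This test estimates the spread with information shared across the 42 genes, so its p-values can fall below 0.03125, the limit of the sign-flip test over 6 libraries. In this fit, all 7 that were higher have numbers of 48 or above, and all 19 that were lower have numbers of 30 or below. TRAJ57 made up 15.7% of chains of the 3 V genes (10.0% to 26.8% over libraries) and 1.88% of other chains (1.14% to 2.70%), a log2 fold change of 3.07 (SE, the standard error, 0.29; edgeR adjusted p = 7.14e-20). TRAJ56 made up 14.6% and 1.96%, a log2 fold change of 2.89 (SE 0.29, edgeR adjusted p = 6.917e-18). TRAJ58 made up 9.37% and 1.45%, a log2 fold change of 2.68 (SE 0.37, edgeR adjusted p = 1.031e-10). For TRAJ57, TRAJ56 and TRAJ58 the 2 ranges over libraries do not overlap. TRAJ52 made up 7.16% and 2.47%, a log2 fold change of 1.53. The other higher genes were TRAJ53 (log2 fold change 1.29), TRAJ48 (1.08) and TRAJ50 (1.07). TRAJ53 and TRAJ48 were higher in 4 of 6 libraries.

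Among the genes that were lower, TRAJ23 made up 3.75% of other chains, TRAJ15 3.23% and TRAJ12 3.10%, and each was found in 0 of 363 chains of the 3 V genes in the 6 libraries. A count of 0 allows a share of up to 0.826% over these libraries together, so TRAJ23 was at least 4.53-fold lower, TRAJ15 at least 3.91-fold and TRAJ12 at least 3.76-fold. TRAJ30 was found in 1 chain against 3.18% of others (log2 fold change -3.47, SE 0.88) and TRAJ9 in 1 chain against 2.98% (-3.39, SE 0.90). TRAJ22, the most used of the lower genes among other TRAV at 4.11%, was found in 3 chains (-2.30, SE 0.63). By position, 7 of 14 tested genes at TRAJ 40 or above were higher and 0 lower, with a median log2 fold change of 0.89. Of 15 at TRAJ 21 to 39, 0 were higher and 7 lower (median -1.53), and of 13 at TRAJ 20 or below, 0 were higher and 12 lower (median -3.39), beside a median of -1.35 over all 42. The medians hold fitted values of genes at 0 chains, 3 in the middle and 6 at the far end, which depend on the prior count. Scaling moved the median of all genes: to -1.80 with TMM, with 4 higher and 25 lower calls, and to -2.67 with DESeq2, with 3 higher and 35 lower. Under DESeq2 TRAJ57, TRAJ56 and TRAJ58 remained higher (1.42, 1.21 and 1.02), whereas TRAJ52, TRAJ53, TRAJ50 and TRAJ48 lay below 0 (-0.14, -0.37, -0.62 and -0.64). Without the dCLN 5xFAD library 17 genes were called.

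**Figure D3:**
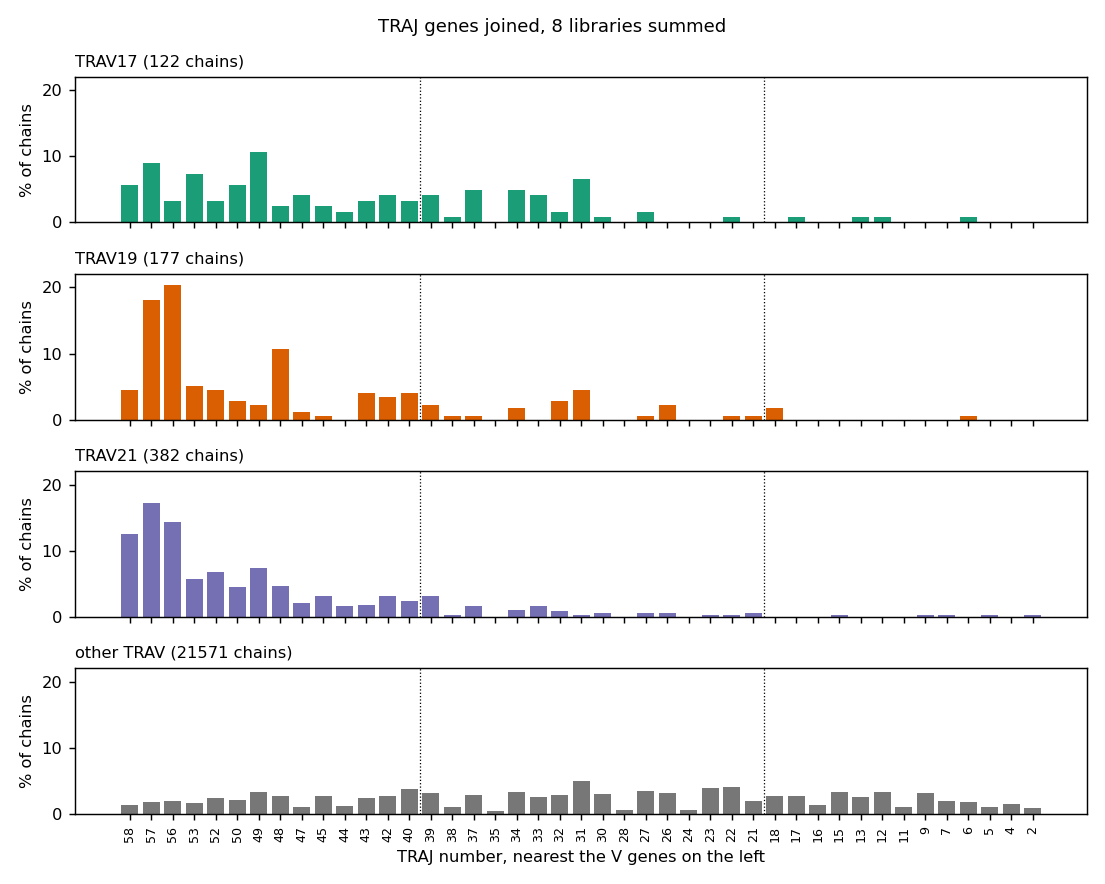
Percent of distinct chains (vertical axis) that joined each TRAJ gene (horizontal axis, by number, nearest the V genes on the left), for TRAV17, TRAV19, TRAV21 and other TRAV with 8 libraries summed. Dotted lines mark TRAJ 40 and TRAJ 20. The 3 genes pile up on the left, and other TRAV are spread along the whole J cluster.

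TRAJ57 was among the leading 3 J genes of each of the 3 V genes. TRAV21 joined TRAJ57 most often (66 of 382 chains), then TRAJ56 (55) and TRAJ58 (48), the 3 V-most TRAJ genes found in the tables, each in 8 of 8 libraries. TRAV19 joined TRAJ56 (36 of 177), TRAJ57 (32) and TRAJ48 (19), each in 8 of 8 libraries, and TRAJ58 in 8 chains. For TRAV17 the leading genes were TRAJ49 (13 of 122 chains, in 4 libraries), TRAJ57 (11, in 2) and TRAJ53 (9, in 3), with 8 chains at TRAJ31. The CD4-titled and mixed libraries held 61 and 29 of the 122 TRAV17 chains, so this ranking rests mostly on them. Of TRAV17 chains 30.3% lay at TRAJ 21 to 39, against 16.4% of TRAV19 and 11.3% of TRAV21 chains, with 8 libraries summed. In other TRAV, TRAJ56, TRAJ57 and TRAJ58 made up 2.01%, 1.74% and 1.34%. These are descriptions, with no test between the 3 genes.

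The TRAJ profile most like that of each gene belonged to another of the 3. Over mean shares of 43 TRAJ genes in 8 libraries, TRAV19 and TRAV21 had a Pearson r of 0.79, TRAV17 and TRAV21 0.56, and TRAV17 and TRAV19 0.52. The next subgroup was TRAV13 for TRAV17 (0.39), TRAV3 for TRAV19 (0.34) and TRAV16 for TRAV21 (0.31). These values are across TRAJ genes, which share libraries and depth, and describe likeness only.

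Junctions, the stretch from the last codon of the V gene's framework to the first of the J gene's, were compared next. TRAV21 junctions averaged 44.4 nucleotides and those of other TRAV 40.4, a difference of 4.03 ± 0.63 (SD, n = 6 libraries) that was positive in 6 of 6 (exact p = 0.03125, adjusted 0.0556). TRAV16 junctions were about as long, at 44.2 ± 0.24 over the same libraries. TRAV19 differed by 0.51 (higher in 5 of 6, exact p = 0.09375) and TRAV17 by 0.017 (higher in 3 of 6, exact p = 1.0). Together the 3 genes had junctions 2.74 nucleotides longer (6 of 6, exact p = 0.03125). Bases between the V and J parts of the junction, called added bases here whatever their origin, averaged 2.43 and 2.70. The difference was -0.27, lower in 5 of 6 libraries (exact p = 0.0625). Within TRAJ 40 or above, a comparison added after the data were seen, the 3 genes had 2.37 added bases and others 2.88, lower in 6 of 6 libraries (exact p = 0.03125, adjusted 0.0536), while their junctions were 2.34 nucleotides longer.

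Some junctions of these genes recurred between libraries. Of 645 distinct combinations of V gene, J gene and junction, 31 (4.81%) were found in 2 or more libraries and 3 (0.465%) in 3 or more, against 3.22% and 0.351% of 20804 combinations of other TRAV. All 3 used TRAV21, and they are shown because they are the most widely shared, with added bases in capitals.
TRAV21-TRAJ56 junction 1: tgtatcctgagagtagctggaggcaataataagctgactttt
TRAV21-TRAJ57 junction 2: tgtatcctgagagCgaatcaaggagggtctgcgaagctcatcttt
TRAV21-TRAJ56 junction 3: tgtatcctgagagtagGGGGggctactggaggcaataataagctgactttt
Junction 1 has 0 added bases and was found in 5 cells of 5 libraries, of both genotypes: dCLN WT, dCLN 5xFAD, iLN WT, CD4-titled and mixed. Junction 2 has 1 added base and was found in 3 libraries. Junction 3 has 4 added bases and was found in 4 cells of 3 libraries (dCLN 5xFAD, iLN WT and CD4-titled). TRAV19 had 11 and TRAV17 3 combinations in 2 libraries each.

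A cell can carry 2 alpha chains, since each of its chromosomes can make a join of its own. Of 1329 such cells with 1 TRB chain over 8 libraries, 78 held 1 chain of the 3 genes, and the other alpha chain of these cells also had a high TRAJ number. Its mean was 46.3, 47.0 and 56.0 in dCLN, sCLN and iLN of WT, where alpha chains of cells without any of the 3 genes had means of 29.3, 27.7 and 28.7. It was 40.6 and 45.4 in dCLN and sCLN of 5xFAD, where the others had 30.8 and 30.1, and iLN 5xFAD had 0 such cells. The groups do not overlap. The difference was 17.7 ± 6.40 (SD, n = 5 libraries) and positive in 5 of 5, on 4 to 15 cells a library (exact p = 0.0625, the smallest that 5 libraries allow). The CD4-titled library had 42.8 against 29.4 and the mixed library 38.4 against 27.6. Over 8 libraries, 50 of 78 other chains (64.1%, interval 52.4 to 74.7) had TRAJ 40 or above, against 28.0% of 2500 chains of cells without the 3 genes. In 1 further cell, of the mixed library, both chains used TRAV21, joined to TRAJ37 and TRAJ58. This comparison was added after the data were seen, and the part of barcodes that hold 2 cells was not tested beyond requiring 1 TRB chain.

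**Figure D4:**
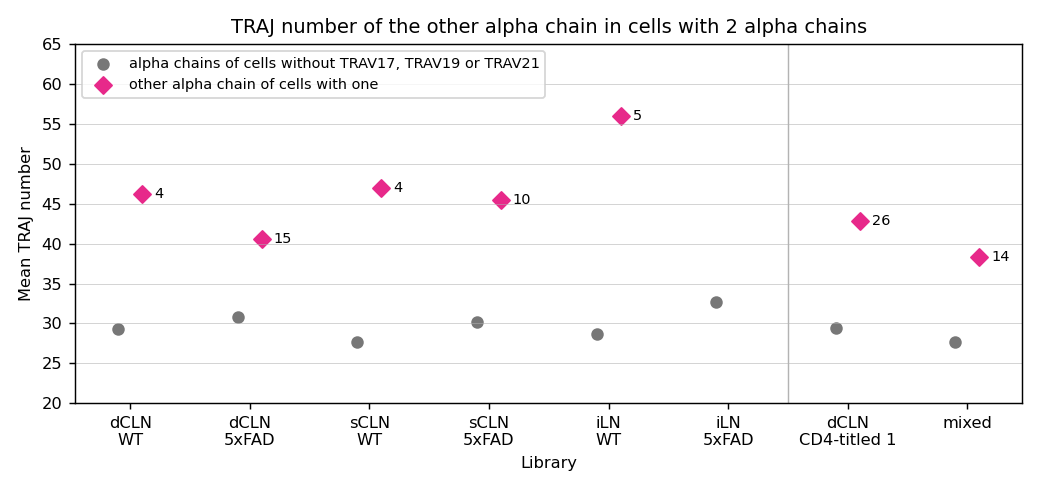
Mean TRAJ number (vertical axis) in cells with 1 TRB and 2 alpha chains, by library (horizontal axis). Diamonds show the other alpha chain of cells with 1 chain of TRAV17, TRAV19 or TRAV21, with the number of cells beside each, and circles show all alpha chains of cells without them. Diamonds lie between 38.4 and 56.0 and circles between 27.6 and 32.6.

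Among the 6 main libraries the reference form was found in each WT library and in no 5xFAD library. It made up 18 of 42 chains in dCLN WT (42.9%), 22 of 37 in sCLN WT (59.5%) and 36 of 61 in iLN WT (59.0%). In 5xFAD it was found in 0 of 100, 0 of 77 and 0 of 48 chains of the same nodes, which together, 0 of 225, allow a share of up to 1.33%. Here chains that differ only in form are counted apart, giving 685 in all. All 3 WT libraries lie above all 3 5xFAD libraries, by 53.8 percentage points on average. The exact p was 0.25 when signs were flipped over the 3 node types, the smallest that they allow. With the WT libraries summed, the reference form made up 6 of 8 chains of TRAV17, 24 of 48 of TRAV19 and 46 of 84 of TRAV21, so each gene held both forms. In the summed 5xFAD libraries it was 0 of 24, 0 of 53 and 0 of 148.

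Both further libraries held both forms. The reference form made up 55 of 203 chains in the CD4-titled library (27.1%, interval 21.1 to 33.8) and 112 of 117 in the mixed library (95.7%, 90.3 to 98.6). The mixed library, labelled as holding both genotypes, thus lies above every WT library and outside the range that a mixture of the WT and 5xFAD libraries could give. The labels do not say which animals stand behind a library, so a difference between genotypes and one between animals cannot be told apart. All 5 chains of the second form in the mixed library used TRAV21, where they were 5 of 49. The allele names in the tables follow the forms, with TRAV17*01, TRAV19*01 and TRAV21/DV12*01 for the second form and TRAV17*02 and TRAV19*03 for the reference form. For TRAV21 the reference form is named TRAV21/DV12*03 in the CD4-titled and mixed libraries and TRAV21/DV12*02 in the main ones, where all 50 such contigs carry C272T against the *02 germline.

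**Figure D5:**
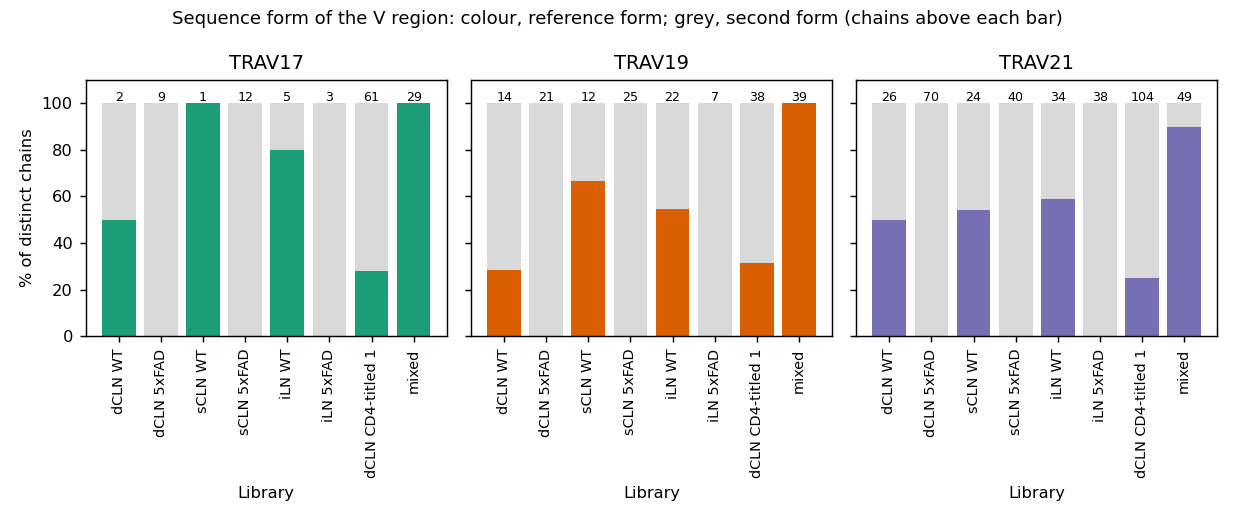
Percent of distinct chains (vertical axis) with the reference form (colour) and the second form (grey) of TRAV17, TRAV19 and TRAV21 in each of 8 libraries (horizontal axis), with the number of chains above each bar. The 3 5xFAD libraries hold the second form alone, and the 3 WT libraries hold 42.9% to 59.5% reference form over the 3 genes together.

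The TRAJ numbers of both forms were compared where both were present. In the 3 WT libraries and the CD4-titled library, chains of the reference form had a mean TRAJ number of 49.1 and those of the second form 49.3. The difference of -0.28 ranged from -1.52 to 0.34 over 4 libraries (exact p = 0.875, with 0.125 the smallest possible), and was positive in 2 of 4. The mixed library had means of 49.4 for the reference form (112 chains) and 53.4 for the second (5 chains), the widest gap of the 5 libraries. With it added, a setting chosen after the data were seen, the difference was -1.03 and ranged from -4.01 to 0.34 over 5 libraries (exact p = 0.4375).

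The use of the 3 genes did not pass the threshold for a genotype difference. Over 61 TRAV subgroups and TRAJ genes tested together, 0 were called between 5xFAD and WT (0.0%) by edgeR's quasi-likelihood test with node type in the fit and Benjamini-Hochberg adjustment at 0.05. DESeq2 called 0 too, and 10 of 61 had an unadjusted p under 0.05 in edgeR and 4 in DESeq2. TRAV17 had a log2 fold change of 0.88 (SE 0.74, edgeR adjusted p = 0.6285), TRAV19 of -0.55 (SE 0.33, edgeR adjusted p = 0.4949) and TRAV21 of 0.19 (SE 0.22, edgeR adjusted p = 0.6987), beside a median of -0.12 over 19 TRAV subgroups. With 1 library left out, TRAV17 ranged from 0.27 to 1.61, TRAV19 from -0.87 to -0.33 and TRAV21 from -0.02 (without either iLN library) to 0.40. V calls of other TRAV chains named more than 1 gene in 20.9% to 22.9% of WT and 5.62% to 6.29% of 5xFAD chains, whereas 0 calls of the 3 genes did, and with such chains left out TRAV21 had a log2 fold change of -0.07.

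The gap between the 3 genes and other TRAV was smaller in 5xFAD in each node. WT libraries had a mean TRAJ number of 49.5 ± 1.17 for the 3 genes and 5xFAD libraries one of 47.6 ± 1.32 (SD, n = 3 libraries each), lower in 5xFAD in 3 of 3 nodes, and that of other TRAV was 30.2 ± 0.56 and 31.5 ± 0.43, higher in 3 of 3. The 3 genes thus exceeded other TRAV by 19.3 ± 0.65 in WT and 16.1 ± 1.34 in 5xFAD. This change of -3.20 on average was negative in 3 of 3 nodes (exact p = 0.25, adjusted 0.3846 over 20 tests). An exact p of 0.25 is the smallest that 3 node types allow. The change was -2.96 with every contig and -2.92 with 2 or more UMIs. It was -2.44 with the main alpha chain of paired cells and -2.38 with calls of 1 gene. By gene, TRAV21 had 50.1 ± 2.39 and 49.8 ± 0.55, TRAV19 48.9 ± 0.16 and 44.0 ± 4.69, and TRAV17 48.2 ± 8.01 and 39.01 ± 0.86, the last on 8 WT and 24 5xFAD chains. TRAV21 was higher in 5xFAD in 2 of 3 nodes (exact p = 1.0), and TRAV19 and TRAV17 were lower in 3 of 3 nodes each (exact p = 0.25). Chains of the second form alone had means of 50.7, 49.2 and 49.5 in dCLN, sCLN and iLN of WT. In 5xFAD they had 46.2, 47.7 and 48.8 in these nodes. All 6 libraries hold this form. By the share at TRAJ 40 or above, the gap to other TRAV was 54.0 points in WT and 46.7 in 5xFAD, smaller in 3 of 3 nodes (exact p = 0.25). The share of the 3 genes itself was 83.7% and 80.8%, and was higher in 5xFAD in 1 of 3 nodes (exact p = 0.75).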

How the data were processed

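T-cell receptor contigs of 9 single-cell libraries were analysed, 1 table each. Per the file headers, V and J genes were called with IgBLAST, and the germline set is not given in the sources used here. The submitters' processing notes name Cell Ranger 6.0.1, Seurat 4.1.0 and the build mm10 without saying what each was for. The deposited counts, raw by their values, give the UMIs and reads of each contig. A deposited fraction, V identity, was used in no result. Junction length and number of bases between V and J were taken as deposited, in nucleotides.

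The members, lists and TRAJ groups were chosen with earlier results of these data known. Chains were made distinct within a library by V gene, J gene and junction. Each library gave a mean, and differences were tested with an exact two-sided sign-flip permutation test over libraries (numpy 2.4.6), with Benjamini-Hochberg adjustment. Counts of distinct chains per TRAJ gene (library as block), or per TRAV subgroup and TRAJ gene (node type as covariate), were fitted with edgeR 4.0.16 in R 4.3.3 with total chains as offset and a minimum of 10 chains per feature. The fits were tested on simulated data, with 10 features changed 4-fold in each of 20 draws at a dispersion of 0.01. As many features were raised as lowered, unlike the TRAJ calls here. The TRAJ fit recovered 71% of the changes with 2.1% of its calls false. The genotype fit recovered 98%, with 3% of its calls false. As each group has 1 library, the genotype spread comes from 3 node types. Shares have Clopper-Pearson 95% intervals (scipy 1.17.1), and a count of 0 an upper limit of 3 counts.

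V regions, ending just before the junction, were looked up in the GENCODE transcripts of GRCm38. Named genes were the members, TRAV1, TRAV2 and TRAV16, the 3 leading TRAJ genes of each member, up to 10 called TRAJ genes by p, the 3 most alike TRAV subgroups of at least 100 chains and up to 3 shared junctions for each member. Others named (TRAV11, TRAV13, TRAV18, TRAV20, TRAV22, TRAV23, TRAJ50 and TRAJ31) were chosen after their values were seen. Printed junctions were limited to those in 3 or more libraries. Alternatives covered every contig, 2 or more UMIs, unambiguous calls, paired cells, TRAJ cutoffs, other scalings, DESeq2 1.42.0 and leaving out each library.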

Additional observations from a re-analysis of the deposited data

How the results depend on the processing

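Replicate numbers pair no samples, because each group has 1 library. Differences were paired within a library or within a node type instead. Keeping only chains with calls of 1 gene moved the adjusted p of 4 results of the 3 genes together to 0.0455, past 0.05: mean TRAJ number (17.1 above other TRAV), share at TRAJ 40 or above (48.9 points), junction length (2.77 nucleotides) and added bases (-0.29). For all but added bases the exact sign-flip p was 0.03125 in both settings. Their adjusted p fell because more tests of the family reached that value, not because the differences grew stronger. Adding the CD4-titled and mixed libraries also moved the 4 results past 0.05, at 18.1, 51.3 points, 2.61 and -0.24. It also moved the other alpha chain past 0.05 (16.1, exact p = 0.01562, 7 libraries). With more libraries the smallest possible exact sign-flip p is lower, at 0.0078 for 8. Leaving out each library gave 17.3 to 18.3 for the mean TRAJ number, 49.2 to 52.0 points, 2.67 to 2.91 nucleotides, -0.33 to -0.20 added bases and 15.3 to 19.7 for the other alpha chain, none of which can pass 0.05 with 5 libraries or fewer. The TRAV17 junction difference turned to between -0.43 and -0.14 without dCLN 5xFAD (-0.22), sCLN 5xFAD (-0.14) or iLN WT (-0.43), and spanned -0.43 to 0.57. The log2 fold change of TRAV21 use in 5xFAD turned to -0.0711 with calls of 1 gene and to -0.0210 without iLN WT or iLN 5xFAD, and spanned -0.0210 to 0.40 with a library left out. Features called between genotypes numbered 2 with TMM and 1 to 9 with a library left out (9 without either sCLN library), with 0 of the 3 genes among them. TRAJ genes called numbered 17 to 24 with a library left out, 38 with DESeq2 and 34 of 43 with 8 libraries. The causes were not tested. The 3 genes have 37 to 100 chains in each main library and TRAV17 1 to 12, which limits the precision of its values.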
